A study of Mus musculus with 8 samples.

Results

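Genes of retinoic acid uptake, synthesis, binding, breakdown and reception were followed in chimaeric mouse embryos. They were Aldh1a2, Cyp26a1, Cyp26c1, Rara, Rarb, Rarg, Crabp1, Crabp2 and Stra6, chosen by name as the rows of the count matrices that carry these symbols, and are 9 of the 55422 genes listed. The study asked what the loss of TET enzymes, which oxidise methylated cytosines, does to cells of the early embryo. Its 8 libraries hold single cells sorted from chimaeras, in which marked mutant cells and unmarked host cells develop side by side, and each cell was read by droplet sequencing of transcript 3′ ends.

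Tet-TKO cells filled 1 library at E7.5 and 4 at E8.5, and WT host cells filled 1 and 2. Tet-TKO cells came from embryonic stem cells that lack Tet1, Tet2 and Tet3, carry an H2B-tdTomato marker driven by the ubiquitous CAG promoter and are labelled C57BL/6J-129Sv. They were injected into C57BL/6J blastocysts, and the tdTomato-positive cells of the later embryos were sorted as Tet-TKO. WT host cells were the tdTomato-negative cells of the chimaeras, labelled C57BL/6J and Wildtype. No agent was given to either group. The mutant cells are from a single stem cell line, embryos were pooled before sorting, and no injected wild-type cells are among these 8 libraries, so that genotype, strain and a history as cultured injected cells cannot be told apart. The labels do not say that libraries of a group came from separate pools of embryos, and every p-value below measures the spread between libraries only.

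Retinoic acid is a diffusible signal made from vitamin A. STRA6 takes retinol into cells, ALDH1A2 carries out the last step of synthesis in the early embryo, and CYP26 enzymes such as CYP26A1 and CYP26C1 break the product down. CRABP1 and CRABP2 bind it in the cytoplasm, and the receptors RARα, RARβ and RARγ, with RXR partners, bind DNA at repeated half-sites and change transcription. In the embryo ALDH1A2 in the paraxial mesoderm and CYP26A1 at the tail end are known for setting a gradient that patterns the hindbrain, the somites and the outgrowing body axis.

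Receptor dimers commonly bind direct repeats of the half-site AGGTCA or close variants, 5 or 2 bases apart. The windows below run from 250 bases before to 50 bases after a RefSeq transcript start in GRCm38.p6. They are shown because they were the only ones among the 15 windows of the 8 matched members that held such a repeat with a 5-base spacer; Crabp2 had no match. Both strands were searched for the half-site AGGTCA and its close variant AGTTCA, and also for GGGTCA and likewise its variant GGTTCA, in any mix within a repeat. Capitals mark the whole repeat with its spacer.
Rarb, chr14:16575427-16575726, minus strand: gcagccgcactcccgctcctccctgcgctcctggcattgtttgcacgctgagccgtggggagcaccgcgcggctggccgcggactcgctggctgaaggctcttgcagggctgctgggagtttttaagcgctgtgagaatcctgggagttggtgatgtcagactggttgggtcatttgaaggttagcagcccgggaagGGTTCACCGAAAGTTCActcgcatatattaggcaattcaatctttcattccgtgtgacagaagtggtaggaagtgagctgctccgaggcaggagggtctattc
Cyp26a1, chr19:37697558-37697857, plus strand: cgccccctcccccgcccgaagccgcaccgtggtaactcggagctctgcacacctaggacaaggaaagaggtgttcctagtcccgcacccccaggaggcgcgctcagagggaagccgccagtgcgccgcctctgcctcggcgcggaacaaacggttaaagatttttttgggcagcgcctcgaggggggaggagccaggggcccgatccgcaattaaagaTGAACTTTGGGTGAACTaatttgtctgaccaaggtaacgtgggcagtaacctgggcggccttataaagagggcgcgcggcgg
In Rarb the repeat lay 36 bases before the start, and in Cyp26a1 it lay 15 bases before the start on the opposite strand. Over all 32851 windows, 32 held a repeat with this spacer, which is 0.0974%. A spacer of 2 bases was found in no member window and in 88 of all windows (0.268%). The match is a description of letters in these windows only.

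The genes lie on 6 chromosomes (mm10, GENCODE M21). Cyp26c1 (19:37685581-37693398) and Cyp26a1 (19:37697798-37701536) are neighbours on the plus strand, 4399 bases apart with 0 annotated genes between them. Crabp1 (9:54764748-54773110), Stra6 (9:58063788-58153996) and Aldh1a2 (9:71215789-71296243) share chromosome 9. Rara is at 11:98927818-98974942, Rarb at 14:16430839-16819156, Rarg at 15:102234938-102257517 and Crabp2 at 3:87948666-87953376. Rarb overlaps Top2b, and Stra6 overlaps Ccdc33, on the opposite strand.

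The 6 E8.5 libraries held 1012 to 9552 kept cells and 65601218 to 136982886 unique molecular identifiers (UMIs), each a single captured transcript. Tet-TKO libraries 3 and 4 stand apart, with 2304 and 1012 cells at a median of 40386.5 and 68704 UMIs, against 12176 to 18763 in the other 4. The E7.5 libraries held 5513 Tet-TKO and 7142 WT host cells. tdTomato reached 71.5 to 144 counts-per-million of UMIs (CPM) in Tet-TKO and 0.444 to 0.938 CPM in WT host libraries, as labelled. A tdTomato UMI was found in 60.8% to 87.2% of the cells of Tet-TKO libraries and in 0.532% to 0.841% of those of host libraries. The other cells of the Tet-TKO libraries are mutant by their sort only. At E8.5 Tet1 was at 9.93, 11.0, 20.1 and 20.9 CPM in Tet-TKO cells and at 22.5 and 20.4 CPM in WT host. Tet2 was at 5.55 to 10.5 CPM against 4.67 and 4.63 CPM and Tet3 at 22.5 to 37.5 CPM against 23.1 and 23.2 CPM, so that neither was lower as a group. These levels check nothing, since 3′ tags can lie outside a deleted part. At most 0.434% of the cell barcodes of the smaller library of a pair were shared.

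Cells of each stage were clustered without the listed genes, and a cluster was called X-like where fixed markers led it. Each gene was then tested on the UMIs summed per cluster and library, in the 38 E8.5 clusters with at least 10 cells in 2 or more libraries of each genotype. A change was called at an adjusted p of at most 0.01 and a log2 fold change of at least 1 in size. The whole family gave 230 tests. Of these, 3 were called lower in Tet-TKO and 0 higher, beside 0.357% of all gene and cluster tests called lower and 0.235% called higher. All 3 calls were Crabp1. Counted without adjustment, 39 of the 230 tests lay below and 21 above zero at an edgeR p under 0.05, beside 5.68% and 5.69% of all tests. DESeq2 gave 7 lower and 5 higher calls, beside 0.495% and 0.368% of all tests. The median log2 fold change was -0.03 over the tests of the 9 genes and 0.01 over all genes.

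**Figure D1:**
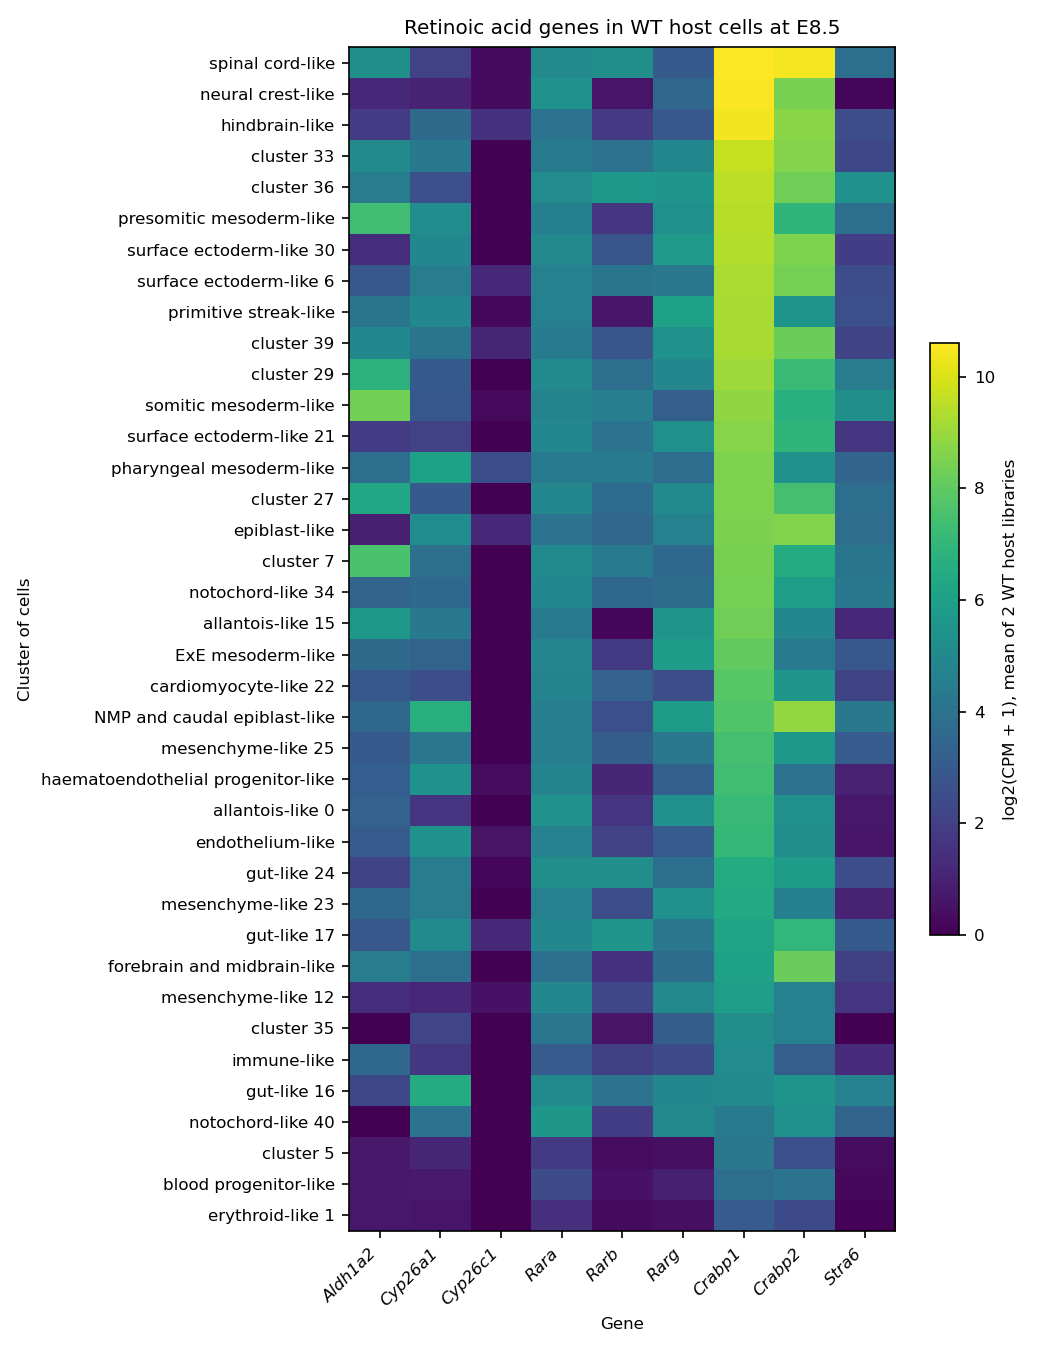
Levels of the 9 genes (columns) in the 38 tested clusters (rows, ordered by Crabp1) of the E8.5 WT host libraries, as the colour of log2(CPM + 1) of the mean of both libraries. Each gene has its own set of high clusters, such as somitic mesoderm-like cells for Aldh1a2 and spinal cord-like cells for Crabp1 and Crabp2.

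Synthesis and uptake come first. Aldh1a2 was highest in somitic mesoderm-like cells. There it stood at 337, 299.8, 205 and 328 CPM in Tet-TKO libraries 1 to 4 and at 315 and 338 CPM in WT host. The groups overlapped, with a log2 fold change of -0.15 (SE 0.20, edgeR adjusted p = 0.86). The cluster led by Alx1 and Nr2f1 (cluster 7) came next, with 118, 109.6, 145 and 144 CPM in Tet-TKO and 206 and 166 CPM in WT host. Here every Tet-TKO library was below both host libraries, but the log2 fold change of -0.55 (SE 0.14) missed the threshold (edgeR adjusted p = 0.15). Presomitic mesoderm-like cells had 141, 91.3, 43.6 and 54.2 CPM against 218 and 107 CPM. This site overlapped cluster 7 in its host values, so that their order is not set beyond the spread of the libraries. Over 23 tested clusters Aldh1a2 had a median log2 fold change of -0.48, lay below zero in 17, and was called in 0. It passed an unadjusted p of 0.05 in 5 clusters below and 1 above zero.

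In whole libraries the direction of Aldh1a2 turned. The summed cells gave 28.4, 23.9, 34.5 and 42.4 CPM in Tet-TKO and 21.7 and 21.3 CPM in WT host, a log2 fold change of 0.49 (SE 0.18, edgeR adjusted p = 0.14). When the Tet-TKO clusters were weighted to the makeup of the host libraries, over 27 clusters that hold 57.6% of host UMIs, the levels were 26.1 to 31.2 CPM against 32.2 and 36.6 CPM, a log2 ratio of -0.27. Cluster 7 made up 2.004% of host cells and 6.73% of Tet-TKO cells on average, and presomitic mesoderm-like cells 2.61% and 6.18%. In a sum over a whole library, fewer cells of a type and less RNA per cell cannot be told apart.

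Stra6, the retinol receptor, was highest in somitic mesoderm-like and gut-like cells once clusters with few UMIs per cell are set aside. In gut-like cluster 16 it reached 8.69, 7.33, 4.06 and 8.94 CPM in Tet-TKO and 26.3 and 24.2 CPM in WT host. No Tet-TKO library came near the host range. The log2 fold change was -1.73 (SE 0.29), and its edgeR adjusted p of 0.0107 lay just outside the threshold; 44 cells of Tet-TKO library 3 and 11 of library 4 stood behind this value. It was called by DESeq2 (DESeq2 adjusted p = 0.0036), and by edgeR with doublets removed (edgeR adjusted p = 0.00996) or without Tet-TKO libraries 3 and 4 (-1.51, edgeR adjusted p = 0.0030). Leaving out Tet-TKO library 1 also gave a call (-1.94, edgeR adjusted p = 0.0087). There was none without Tet-TKO library 2, 3 or 4 alone, with Tet-TKO libraries summed in pairs or with tdTomato matched to the sort. Summing the gut-like clusters, chosen after seeing the data, gave -1.33 (edgeR adjusted p = 0.031). Somitic mesoderm-like cells had 21.6, 29.7, 15.6 and 27.8 CPM against 34.1 and 42.1 CPM, again without overlap (log2 fold change -0.72, SE 0.26, edgeR adjusted p = 0.39). Cluster 36, first by its host mean, had a median of 2055.5 to 4929 UMIs per cell. Stra6 stood there at 0 to 14.05 CPM in Tet-TKO and 39.6 and 41.8 CPM in WT host. Stra6 lay below zero in 13 of 16 tested clusters, with a median of -0.74. In 8 of 15 clusters with all 6 libraries every Tet-TKO library was below both host libraries, a pattern seen in 13.0% of all such gene and cluster pairs. The gene was low in many clusters, with a median host mean of 4.64 CPM over the ranked clusters. Where only the host libraries reached the level of the low-count filter, the filter favoured a lower Tet-TKO value. How many of the tested clusters this concerns was not counted. In whole libraries the groups overlapped (3.66 to 6.67 CPM against 5.34 and 5.40 CPM), while at the host makeup they did not (4.78 to 5.57 CPM against 8.19 and 8.29 CPM).

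The breakdown enzyme Cyp26a1 was highest in NMP and caudal epiblast-like cells, the tail-end progenitors that feed the neural tube and the paraxial mesoderm. They had 33.5, 47.3, 68.3 and 38.0 CPM in Tet-TKO and 75.0 and 121 CPM in WT host. All Tet-TKO libraries were below both host libraries, with a log2 fold change of -1.05 (SE 0.26) that edgeR did not call (adjusted p = 0.11). DESeq2 called it (DESeq2 adjusted p = 0.0065), as did edgeR without Tet-TKO libraries 3 and 4 (-1.18, edgeR adjusted p = 0.0045). The latter also called Cyp26a1 higher in gut-like cluster 17 (1.62, edgeR adjusted p = 0.0023), where all libraries together had 120, 61.0, 28.0 and 5.05 CPM against 46.0 and 17.8 CPM and overlapped. Gut-like cluster 16 had 57.7, 82.0, 31.9 and 23.0 CPM against 84.3 and 98.7 CPM (edgeR adjusted p = 0.44), and pharyngeal mesoderm-like cells had 83.6, 106, 60.7 and 67.6 CPM against 83.8 and 48.2 CPM (edgeR adjusted p = 0.79). The host values of these 3 sites overlapped or nearly did, and their order is not set beyond the spread of the libraries. The lowest adjusted p, 0.0497 by edgeR, was in mesenchyme-like cluster 25, where the gene is low (3.31 to 6.58 CPM in Tet-TKO, 13.5 and 20.1 CPM in WT host). These Tet-TKO values lie near the level of the low-count filter, which favoured a lower Tet-TKO value there. Whether it did so in other clusters where the gene is low was not counted. Cyp26a1 lay below zero in 17 of 25 tested clusters (median -0.47), with 7 of 21 clusters without overlap in that direction and 0 in the other, beside 13.0% and 9.29% of all gene and cluster pairs.

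Cyp26c1 is a rare transcript here and passed the low-count filter in 1 cluster. The whole libraries held 5, 12, 9 and 7 UMIs in Tet-TKO and 50 and 54 in WT host. These are 0.0366, 0.0976, 0.0943 and 0.108 CPM against 0.381 and 0.426 CPM. The groups did not overlap, and the log2 fold change of -2.38 (SE 0.38) had an edgeR adjusted p of 0.0126, just outside the threshold. Of all genes in whole libraries, edgeR called 2.65% in either direction, and of the 9 members 0. The 434 lower and 124 higher calls behind that share fell with any single library left out. They were 167 and 63 without Tet-TKO library 1, 145 and 58 without library 2, 133 and 48 without library 3 and 164 and 63 without library 4. With Tet-TKO libraries summed in pairs they fell to 0. DESeq2 called Cyp26c1 in whole libraries (-2.39, DESeq2 adjusted p = 0.00025), beside 6.86% of all genes. Pharyngeal mesoderm-like cells supplied the largest host share of its UMIs, with 0, 4, 3 and 6 UMIs in Tet-TKO and 20 and 21 in WT host (log2 fold change -2.12, SE 0.71, edgeR adjusted p = 0.31). Both host libraries but only 1 Tet-TKO library reached the level of the filter there, so that the filter favoured a lower Tet-TKO value in the only cluster tested. Hindbrain-like cells had 1, 0, 1 and 0 UMIs against 10 and 11, and surface ectoderm-like cluster 6 had 0.421, 0.742, 0.185 and 0 CPM against 1.35 and 1.36 CPM. At these counts single UMIs move a library's level.

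**Figure D2:**
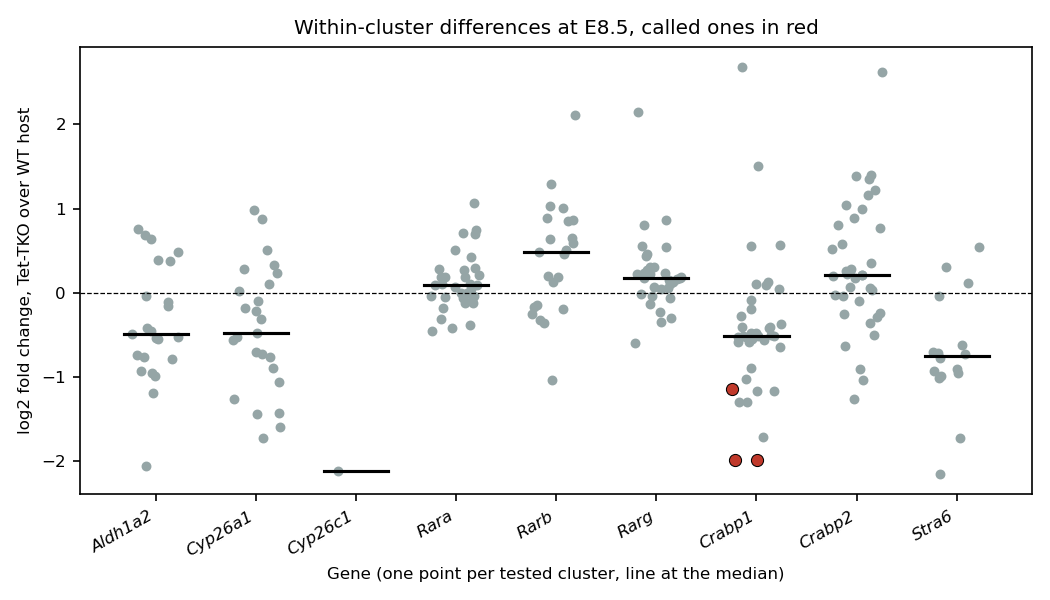
Log2 fold change, Tet-TKO over WT host, of each gene in every E8.5 cluster where it was tested, with a line at the median and called tests in red. Crabp1 and Stra6 lie mostly below zero, Rarg mostly above, and the 3 calls are Crabp1.

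The binding proteins gave the calls. Crabp1 was highest in spinal cord-like, neural crest-like and hindbrain-like cells, and there the genotypes overlapped. Spinal cord-like cells had 1309, 1730.5, 1425 and 923 CPM in Tet-TKO and 1485 and 1627 CPM in WT host (log2 fold change -0.19, SE 0.23, edgeR adjusted p = 0.80). Neural crest-like cells had 2042, 1045 and 1291 CPM in the 3 Tet-TKO libraries with enough cells and 1428 and 1572 CPM in WT host (-0.08, SE 0.20, edgeR adjusted p = 0.92). Hindbrain-like cells had 1774, 2697, 1938 and 1488 CPM against 1043 and 1659.6 CPM (0.57, SE 0.27, edgeR adjusted p = 0.42). The host ranges of these 3 clusters overlap, so no order among them is set.

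Crabp1 was lower in Tet-TKO in the tail-end progenitors and in surface ectoderm-like cells. NMP and caudal epiblast-like cells had 60.9, 59.2, 53.6 and 36.3 CPM in Tet-TKO and 196 and 228 CPM in WT host, over 326, 664, 135 and 74 Tet-TKO and 248 and 287 host cells. The highest Tet-TKO library was far below the lower host library. The log2 fold change was -1.98 (SE 0.21, edgeR adjusted p = 0.0026), in a cluster where 0.217% of all genes were called lower. Crabp2, measured in the same cells, stood at 379, 345, 423 and 445 CPM against 477 and 470 CPM, below the host libraries but with a log2 fold change of -0.24 (SE 0.11, edgeR adjusted p = 0.39).

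Surface ectoderm-like cluster 30 had 162, 229, 137 and 116 CPM of Crabp1 in Tet-TKO and 532 and 800 CPM in WT host, over 92, 122, 23 and 11 Tet-TKO and 85 and 92 host cells. Again the groups were well apart (log2 fold change -1.98, SE 0.24, edgeR adjusted p = 0.00072); 0.321% of genes were called lower in this cluster. Surface ectoderm-like cluster 6 had 275, 251, 260 and 324 CPM against 606 and 618 CPM. Its log2 fold change was smaller at -1.14 (SE 0.12, edgeR adjusted p = 0.0015), with 0.331% of genes called lower. Surface ectoderm-like cluster 21, not called, had 162, 167, 202 and 355 CPM against 429 and 385 CPM (-0.89, SE 0.27, edgeR adjusted p = 0.26). When the 3 surface ectoderm-like clusters were summed, a choice made after seeing the data, the log2 fold change was -1.26 (SE 0.13, edgeR adjusted p = 0.0026).

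The calls rested on both host libraries. Without WT host library 2 none of the 3 passed, with edgeR adjusted p of 0.065 in NMP and caudal epiblast-like cells, 0.040 in cluster 30 and 0.043 in cluster 6, and without WT host library 1 only cluster 30 did. Summing Tet-TKO libraries 1 with 2 and 3 with 4 ended the call in cluster 6 (edgeR adjusted p = 0.012). Leaving out Tet-TKO library 3 moved the first to an adjusted p of 0.0109. The fold changes themselves stayed between -2.08 and -1.74, between -2.32 and -1.67 and between -1.25 and -1.08 in the alternatives where the cluster could be tested, and leaving out the few-cell Tet-TKO libraries 3 and 4 together gave 9 member calls lower, these 3 among them, and 2 higher, beside 0.833% and 0.547% of all tests.

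Other transcripts also differed between the genotypes in these clusters, and erythroid markers did so beyond them. In spinal cord-like cells, where Crabp1 overlapped, erythroid markers summed to 5.52 to 37.5 CPM in Tet-TKO and 513 to 1288 CPM in WT host, with 3 called lower. In blood progenitor-like cells they overlapped, with 0 called. The 6 erythroid markers summed to 8.19 to 43.2 CPM in Tet-TKO and 533 to 1400.2 CPM in WT host in NMP and caudal epiblast-like cells, with 3 of the 4 tested markers called lower, and to 7.76 to 34.2 CPM against 504 to 1300.4 CPM in cluster 30 and 4.50 to 33.1 CPM against 485 to 1257 CPM in cluster 6, again with 3 called. Markers of ExE endoderm summed to 0.697 to 5.47 CPM against 17.9 to 24.2 CPM in the first cluster, to 0.670 to 1.84 CPM against 17.6 to 24.5 CPM in cluster 30 and to 0.494 to 2.74 CPM against 13.3 to 33.8 CPM in cluster 6, with 0, 1 and 0 called lower. Crabp1 itself was low in blood, at 4.74 and 10.5 CPM in the erythroid-like cluster 1 of the host libraries. Spinal cord markers, of cells rich in Crabp1, summed to 31.0 to 55.3 CPM against 64.0 to 85.8 CPM in cluster 30, to 127 to 213 CPM against 283 to 286 CPM in cluster 6, and overlapped in NMP and caudal epiblast-like cells (182 to 269 CPM against 236 to 278 CPM), with 0 of these markers called. Neural crest markers, also of cells rich in Crabp1, lay the other way in cluster 30 (46.5 to 73.8 CPM against 32.02 to 39.2 CPM) and overlapped in cluster 6 (28.2 to 82.1 CPM against 19.4 to 37.1 CPM) and in NMP and caudal epiblast-like cells (9.24 to 12.2 CPM against 8.33 to 10.5 CPM), with 0 called. The part of these transcripts in the result was not tested. The clusters' own markers gave 0 calls in all 3, at 978 to 1032 CPM against 1186 to 1232 CPM in NMP and caudal epiblast-like cells, 1159 to 1498 CPM against 1509 to 1546 CPM in cluster 30 and 983 to 1306 CPM against 871 to 882 CPM in cluster 6.

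**Figure D3:**
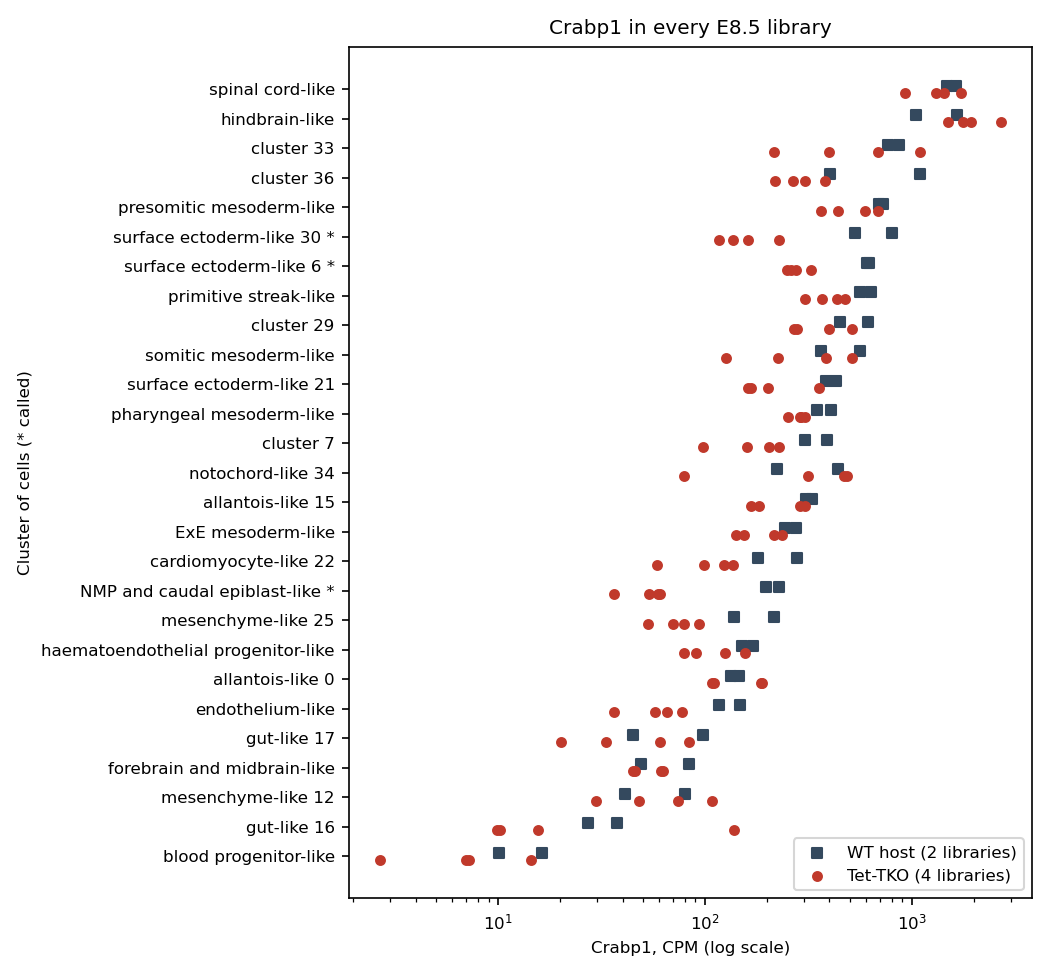
Crabp1 in each E8.5 library, in CPM on a log axis, in the 27 clusters with all 6 libraries (rows), squares for WT host, circles for Tet-TKO and an asterisk at the 3 called clusters. Tet-TKO points lie among the host points in spinal cord-like cells and below them in NMP and caudal epiblast-like cells and surface ectoderm-like clusters 30 and 6.

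The share of cells that held a Crabp1 UMI separated the genotypes in 2 of these 3 clusters. Each cell was thinned to 5000 UMIs, which left out 76 to 724 cells per library. In NMP and caudal epiblast-like cells 20.7%, 20.6%, 19.4% and 13.5% of Tet-TKO cells and 54.1% and 58.6% of WT host cells were positive (unthinned, 40.8% to 68.9% and 78.0% to 84.3%, at median depths of 12067.5 to 75597 and 12437 to 14711 UMIs). In cluster 30 the shares were 37.9%, 35%, 30.4% and 9.09% against 76.5% and 92.2%, the last Tet-TKO value resting on 11 cells. In cluster 6 they were 44.2%, 45.7%, 44.9% and 71.1% against 58.3% and 65.1%, so that Tet-TKO library 4, with 38 cells, lay above the host values. Erythroid-like cluster 1, which should lack the gene, had 1.82% and 4.24% in the host libraries at median depths of 18157.5 and 15263.5 UMIs. All shares above are higher than that background, which was measured in the host libraries only. The Tet-TKO libraries held 1, 12, 12 and 7 cells of that cluster, too few for a firm background of their own.

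Over all clusters Crabp1 was often without overlap. In 14 of 27 clusters with all 6 libraries every Tet-TKO library was below both host libraries, and in 0 every one was above, beside 13.0% and 9.29% of all gene and cluster pairs. The 14 included endothelium-like cells (36.2 to 77.4 CPM against 117 and 147 CPM, log2 fold change -1.16, SE 0.22, edgeR adjusted p = 0.019), mesenchyme-like cluster 25 (53.1 to 94.0 CPM against 138 and 216 CPM) and presomitic mesoderm-like cells (364 to 687 CPM against 691 and 727 CPM). All clusters come from the same 6 libraries, so the 14 are not independent. In whole libraries the genotypes overlapped in Crabp1, at 287, 439, 393 and 325 CPM against 246 and 381 CPM (log2 fold change 0.12, SE 0.24, edgeR adjusted p = 0.79).

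Crabp2, which hands retinoic acid to its nuclear receptors, was above zero in 25 of 37 tested clusters, with a median of 0.21 and 0 calls. Spinal cord-like cells, its highest site, had 1281, 1246, 1463 and 1484 CPM in Tet-TKO and 1342 and 1462 CPM in WT host (-0.03, SE 0.11, edgeR adjusted p = 0.94), above the NMP and caudal epiblast-like cells given before. Hindbrain-like cells, next in order, had 367, 365, 478 and 424 CPM against 401 and 443 CPM. It was higher in every Tet-TKO library in 4 of 27 clusters and lower in every one in 2 (NMP and caudal epiblast-like and blood progenitor-like cells), beside 9.29% and 13.0% of all gene and cluster pairs. Allantois-like cluster 0 had 61.0, 85.3, 86.3 and 90.6 CPM against 31.5 and 46.8 CPM (log2 fold change 1.04, SE 0.19, edgeR adjusted p = 0.032). Primitive streak-like cells had 76.9, 91.8, 160.0 and 145 CPM against 38.2 and 50.7 CPM (1.40, SE 0.29, edgeR adjusted p = 0.079). ExE mesoderm-like cells and allantois-like cluster 15 gave log2 fold changes of 1.39 and 1.35 (edgeR adjusted p = 0.29 and 0.11). Cluster 35, with 9 cells of Tet-TKO library 4, had 97.2, 63.5 and 131 CPM in the other 3 Tet-TKO libraries against 39.9 and 8.47 CPM, the lowest adjusted p of the gene (2.62, SE 0.56, edgeR adjusted p = 0.021); each host value rests on 9 UMIs. None of these 5 higher changes was called by edgeR with all libraries and the low-count filter, and all 5 were by DESeq2. Without Tet-TKO library 1 edgeR called ExE mesoderm-like cells (1.62, edgeR adjusted p = 0.0086). With a replicate block on libraries 1 and 2 it called allantois-like cluster 15 (1.44, edgeR adjusted p = 4.0e-20). That fit used libraries 1 and 2 alone, as pairs that no label ties. Its p is therefore not to be set beside those of the other fits.

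Of the receptors, Rara had its highest host levels in notochord-like cluster 40 (41.2 and 55.5 CPM), neural crest-like cells (45.6 and 38.4 CPM) and allantois-like cluster 0 (40.2 and 40.5 CPM). The neural crest-like values overlap those of both other clusters, and notochord-like cluster 40 lies just above allantois-like cluster 0. The Tet-TKO libraries had 17.2 to 40.8, 28.9 to 39.7 and 35.4 to 51.5 CPM there, with edgeR adjusted p of 0.84, 0.55 and 0.79. Over 35 clusters its log2 fold changes ran from -0.45 to 1.07 with a median of 0.09.

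Rarg, which is broadly expressed in the caudal embryo, had host levels of 61.2 and 70.6 CPM in primitive streak-like, 53.0 and 62.3 CPM in ExE mesoderm-like and 50.0 and 57.6 CPM in NMP and caudal epiblast-like cells. Cluster 42, with 3370 to 4811 UMIs per host cell at the median, had 65.4 and 68.1 CPM. Tet-TKO values in the 3 deeper clusters were 59.7 to 84.5, 45.2 to 69.3 and 52.0 to 72.0 CPM, overlapping the host values each time (edgeR adjusted p = 0.84, 0.99 and 0.63). Rarg lay above zero in 24 of 32 tested clusters with a median of 0.18. In whole libraries it was higher in every Tet-TKO library, at 28.9, 29.6, 30.5 and 32.2 CPM against 16.2 and 15.3 CPM. The log2 fold change of 0.86 (SE 0.09) had an edgeR adjusted p of 0.0036 but stayed under the fold limit. At the host makeup the ranges were 22.3 to 29.6 CPM against 22.3 and 24.4 CPM, a log2 ratio of 0.16.

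Rarb, itself a known target of the signal, varied most among the receptors. Gut-like cluster 17 had 29.6, 23.0, 44.3 and 41.7 CPM in Tet-TKO and 45.6 and 45.2 CPM in WT host (-0.36, SE 0.21, edgeR adjusted p = 0.62). Gut-like cluster 24 had 15.3 and 19.6 CPM in the 2 Tet-TKO libraries with enough cells and 27.2 and 46.7 CPM in WT host (-1.03, SE 0.33, edgeR adjusted p = 0.13). Cluster 36, the first by its host mean, had 9.36 to 36.3 CPM against 69.6 and 29.7 CPM at few UMIs per cell. Spinal cord-like cells had 52.4, 45.8, 61.1 and 72.0 CPM against 35.6 and 38.1 CPM, every Tet-TKO library above both host libraries (0.65, SE 0.17, edgeR adjusted p = 0.17). In hindbrain-like cells the gene was low and the groups overlapped (1.40 to 2.70 CPM against 2.34 and 2.46 CPM). These neural clusters were named after their values were seen, and the difference between clusters was not tested. The whole-library levels of Tet-TKO libraries 3 and 4 (16.7 and 18.9 CPM) stood apart from those of libraries 1 and 2 (7.24 and 7.40 CPM), which were level with the host (7.62 and 7.03 CPM). Over 23 clusters the median was 0.49, with 4 of 20 clusters all higher and 1 all lower, beside 9.29% and 13.0% of all gene and cluster pairs.

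**Figure D4:**
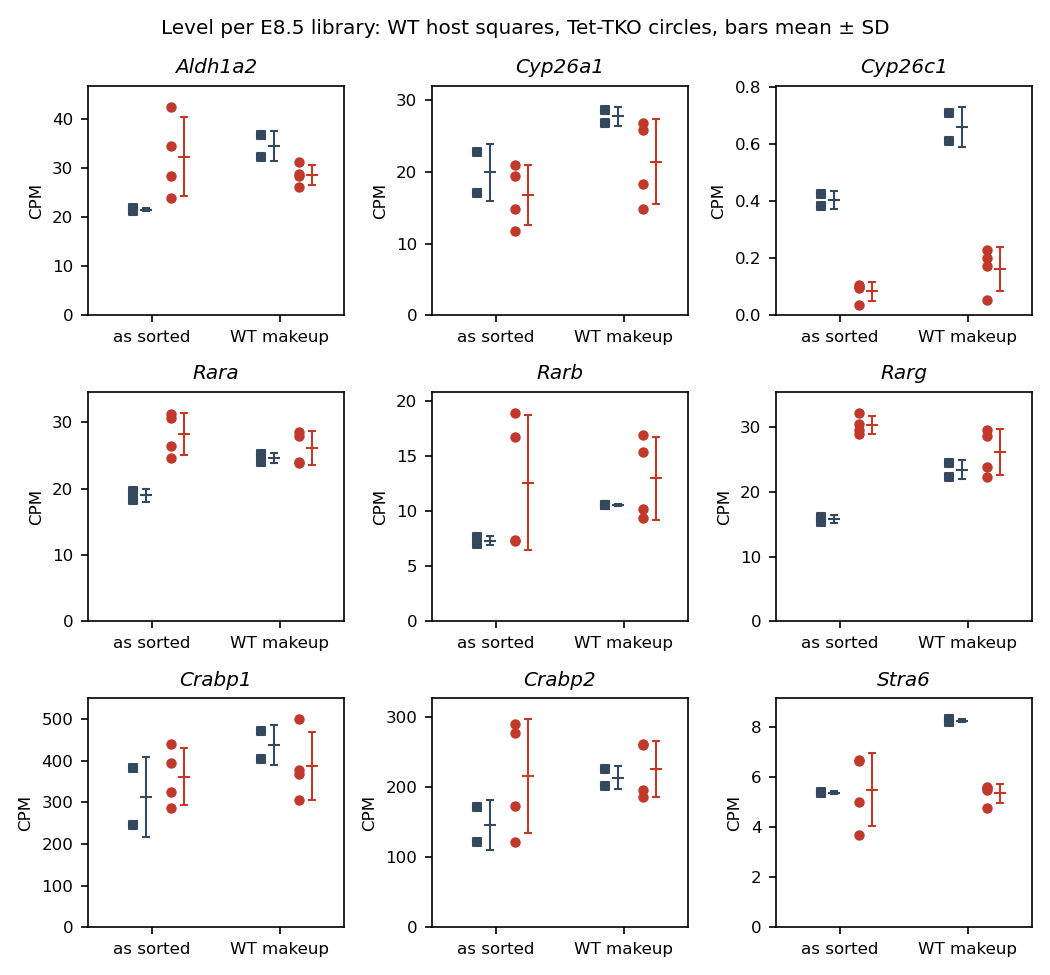
The 9 genes in E8.5 libraries, in CPM from 0, 1 point per library with bars for mean ± SD, as sorted (left) and weighted to the host makeup of clusters (right). As sorted, Rarg, Rara and Aldh1a2 are higher and Cyp26c1 lower in every Tet-TKO library than in both host libraries, and the others overlap; at the host makeup Aldh1a2, Cyp26c1 and Stra6 lie lower.

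Within presomitic mesoderm-like cells, where the enzyme that makes the signal and the one that clears it are both expressed, Cyp26a1 was less often found in Aldh1a2-positive cells in 5 of 6 libraries. It was detected, after thinning, in 2.27% and 2.13% of Aldh1a2-positive host cells (88 and 47 cells) and in 10.3% and 19.9% of Aldh1a2-negative host cells. In Tet-TKO libraries 1 to 3 the shares were 4.14%, 2.59% and 5.56% of positive cells against 9.97%, 12.4% and 13.4% of negative cells. Tet-TKO library 4 had the reverse, 18.2% against 8.57%, on 11 positive cells. The positive shares rest on 1 to 6 cells each and are given as a description. Other clusters gave other orders, such as cluster 7, where the share was higher in Aldh1a2-positive cells in 3 of 6 libraries (5.88% against 4.10%, 3.01% against 2.84% and 6.94% against 4.55%). Across the 41 clusters of the host libraries the correlation of log2(CPM + 1) between Aldh1a2 and Cyp26a1 was 0.19. The pairs most alike were Crabp1 with Crabp2 (r = 0.74), Rarb with Stra6 (0.74) and Rara with Rarg (0.70), values that rest on clusters drawn from the same 2 libraries.

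Among 9769 genes compared over these clusters, the genes most like each member in its host pattern were as follows. Aldh1a2 was nearest to Osr1 (r = 0.73), 2810001G20Rik (0.72) and Thap12 (0.69), and Cyp26a1 to Etv4 (0.65), Etv5 (0.63) and Laptm4b (0.62). Crabp1 was nearest to Ier5l (0.80), Hdgfl3 (0.79) and Hoxa2 (0.79), and Crabp2 to Nr6a1 (0.85), Apba2 (0.85) and Pak1 (0.84). For the receptors the leading genes were Yap1 (0.90), Mpnd (0.89) and Itm2c (0.89) for Rara, Plppr3 (0.82), Foxp1 (0.78) and Irx1 (0.77) for Rarb, and Ptk7 (0.90), Itgb5 (0.86) and Lrfn4 (0.86) for Rarg. Stra6 was nearest to Dpysl5 (0.83), Arhgap24 (0.81) and Hotairm1 (0.81). Cyp26c1 had lower values, with Crnde (0.61), Ebf1 (0.59) and Irx5 (0.57).

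The other 24 genes of retinoid uptake, binding, synthesis, breakdown and reception were counted beside the 9. Of these, 21 could be tested, in 485 tests with a median log2 fold change of 0.10, and 6 tests were called lower and 2 higher, beside 0.357% and 0.235% of all tests. The 6 were all Rbp4, the retinol carrier of serum and yolk sac. In gut-like cluster 24 Rbp4 stood at 215 and 215 CPM in the 2 Tet-TKO libraries and at 1869 and 1039 CPM in WT host (log2 fold change -2.69, SE 0.22, edgeR adjusted p = 8.7e-06). ExE endoderm markers, of the yolk sac cells rich in Rbp4, summed to 1181 to 1231 CPM against 3306 to 4853 CPM in that cluster, with 3 of 6 called lower. In blood progenitor-like cells, where Rbp4 was at 0 to 0.939 CPM against 10.9 and 12.7 CPM (-4.61, SE 0.58, edgeR adjusted p = 0.0028), those markers were at 0 to 0.640 CPM against 26.4 to 27.1 CPM. The other Rbp4 calls were in cardiomyocyte-like cluster 22 (-3.28), surface ectoderm-like cluster 6 (-2.98), epiblast-like (-2.33) and spinal cord-like cells (-2.17). The ExE endoderm markers summed to 2.70 to 13.4 CPM against 12.1 to 56.2 CPM, 0.494 to 2.74 CPM against 13.3 to 33.8 CPM, 1.96 to 2.12 CPM against 5.44 to 25.7 CPM and 0.425 to 3.35 CPM against 11.5 to 22.6 CPM in these clusters, with 0 called, and 3 erythroid markers were called lower in each. The part of such cells in the Rbp4 values was not tested. In blood progenitor-like, cardiomyocyte-like, surface ectoderm-like and epiblast-like cells Rbp4 reached the level of the low-count filter in both host libraries and in 0 Tet-TKO libraries, so a tested change there had to be lower, and these 4 calls are given as values only.

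The 2 higher calls were Fabp5, which can also carry retinoic acid. Notochord-like cluster 40 had 475, 818 and 480.3 CPM in 3 Tet-TKO libraries and 162 and 118 CPM in WT host (log2 fold change 2.03, SE 0.30, edgeR adjusted p = 0.0029), and immune-like cells had 614 and 499 CPM against 336 and 230.4 CPM (1.04, SE 0.18, edgeR adjusted p = 0.0041). In notochord-like cluster 40 the 6 notochord markers summed to 2333 to 2451 CPM in Tet-TKO and 3603 to 3609 CPM in WT host, with 1 called lower, and 3 erythroid markers were called lower. The label of immune-like cells is weak in Tet-TKO, where the 5 immune markers summed to 7.27 to 16.3 CPM against 476 to 1008 CPM in the host and were all called lower. Of 13 genes widely described as targets of retinoic acid 12 could be tested, in 310 tests with a median of -0.00076 and 1 call higher, beside 0.235% of all tests. Meis2 in mesenchyme-like cluster 23 was called higher (202, 222 and 239 CPM against 108 and 105 CPM; log2 fold change 1.04, SE 0.15, edgeR adjusted p = 0.0029), and 0 tests were called lower. The 6 mesenchyme markers of that cluster summed to 3022 to 3316 CPM in Tet-TKO and 5238 to 5968 CPM in WT host, with 2 called lower, as were 3 erythroid markers and 1 ExE endoderm marker. The part of these differences between the cells in the Fabp5 and Meis2 values was not tested.

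The single E7.5 library per genotype allows no test, and the intervals that follow are exact 95% Poisson intervals of the UMI counts, which cover counting error only. Aldh1a2 was highest in presomitic mesoderm-like cells, at 133 CPM in Tet-TKO (119 to 148) and 233 CPM in WT host (218 to 248). Crabp1 led in somitic mesoderm-like cells, with 219 CPM (204 to 235) against 301 CPM (288 to 313), and in presomitic mesoderm-like cells it was at 121 CPM (108 to 136) against 217 CPM (203 to 232). The E7.5 somitic mesoderm-like cluster was led by Foxc2 and Tcf15, but also by Alx1, Foxc1 and Tbx1. Its somitic markers had a mean log2 rise of 2.35 and cranial mesoderm markers 1.94. The E8.5 cluster of that name was led by Meox1 and Tcf15, so the clusters may hold different cells. Whole-library Crabp1 was nearly level (58.3 CPM, 56.8 to 59.7, against 55.2 CPM, 53.8 to 56.6). Of 10 clusters with at least 50 cells of each genotype, the intervals lay apart with Tet-TKO lower in 4 for Aldh1a2 and in 8 for Crabp1, and higher in 0, beside 4.89% and 3.41% of all gene and cluster pairs with at least 10 UMIs. Aldh1a2 overlapped in the other 6, some with the higher value in Tet-TKO, such as cluster 10 (32.8 CPM against 26.2 CPM). Of its 4 lower clusters, cluster 5 rested on 5 against 10 UMIs and haematoendothelial progenitor-like cells on 4 against 20. PGC-like cluster 21, where it overlapped, held only 3 and 2 of its UMIs. Poisson intervals narrow in proportion as counts rise, so an abundant gene such as Crabp1 lies apart more easily than the pooled shares. Those shares do not measure what is usual at its counts.

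Cyp26a1 had no single direction at E7.5, with intervals apart and Tet-TKO higher in 5 of the 10 clusters and lower in 1. The 5 included gut-like cells at 145 CPM (127 to 164) against 70.2 CPM (61.6 to 79.5) and haematoendothelial progenitor-like cells at 64.5 CPM (56.4 to 73.4) against 25.8 CPM (20.4 to 32.3), and the 1 was somitic mesoderm-like cells at 24.2 CPM (19.4 to 29.8) against 54.0 CPM (48.9 to 59.5). In cluster 7 of that stage, with 518 Tet-TKO and 104 host cells, it was at 156 CPM (149 to 163) against 143 CPM (125 to 162), and in primitive streak-like cells, with only 41 host cells, at 61.3 CPM (55.5 to 67.5) against 105 CPM (79.8 to 136). Stra6 in somitic mesoderm-like cells was at 13.3 CPM (9.83 to 17.7) against 21.2 CPM (18.04 to 24.7). Rarg in whole libraries was at 24.8 CPM (23.9 to 25.8) against 14.99 CPM (14.3 to 15.8), but within the 10 clusters its intervals lay apart in 0 with Tet-TKO higher and in 1 with Tet-TKO lower (cluster 10, 27.5 CPM against 46.8 CPM). Whole-library Crabp2 was at 53.3 CPM (52.0 to 54.8) against 44.7 CPM (43.4 to 46.0). Within the 10 clusters its intervals lay apart in 3 with Tet-TKO higher and in 0 with Tet-TKO lower. The makeup of the whole libraries differed. ExE ectoderm-like clusters 0 and 6 held 1098 and 637 host cells but 5 and 1 Tet-TKO cells, and Crabp2 was at 2.29 and 3.02 CPM in the host there. The part of makeup in the whole-library levels was not tested. Rara was at 17.1 CPM (16.3 to 17.9) against 16.6 CPM (15.8 to 17.4). Rarb and Cyp26c1 were scarce, with 120 and 2 UMIs in Tet-TKO and 169 and 6 UMIs in WT host over the whole libraries.

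**Figure D5:**
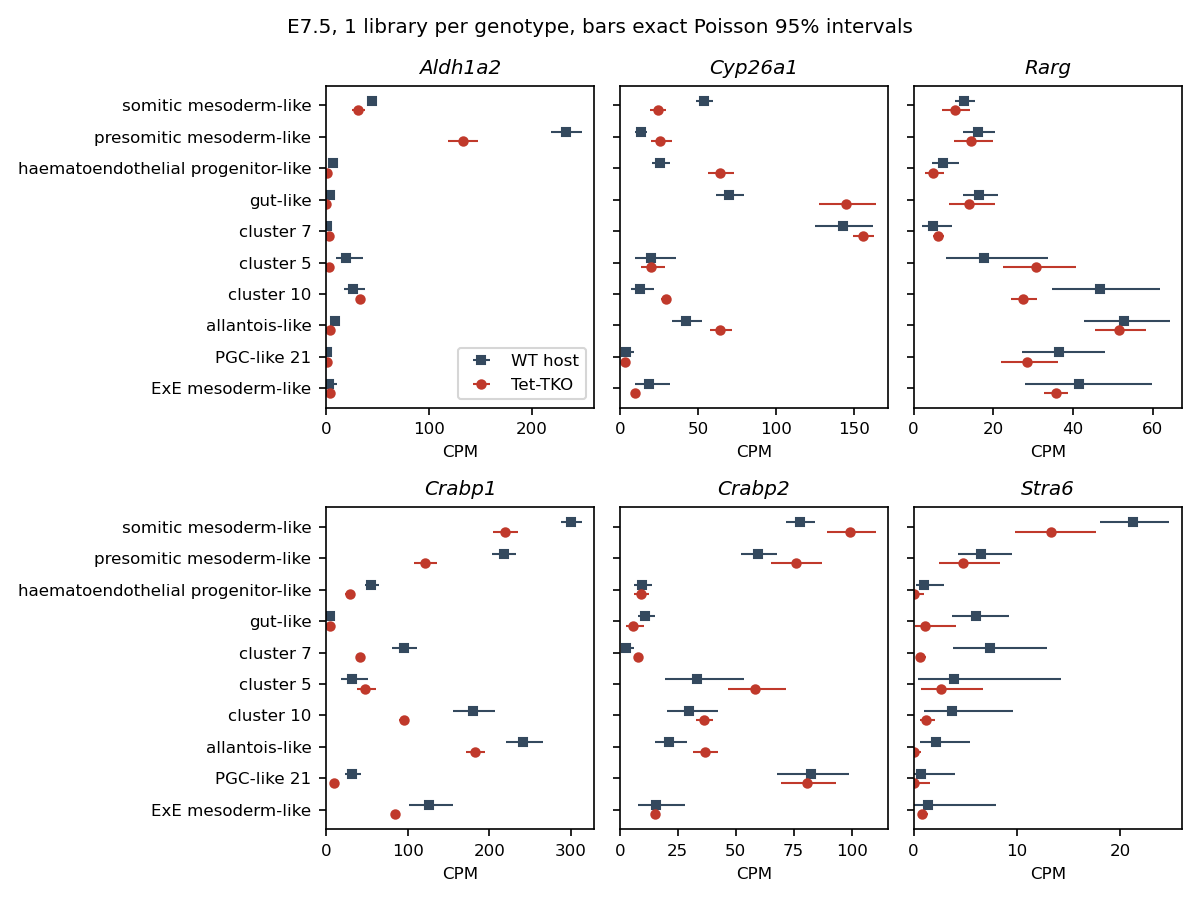
Aldh1a2, Cyp26a1, Rarg, Crabp1, Crabp2 and Stra6 in E7.5 clusters with at least 50 cells of each genotype, in CPM with exact 95% Poisson intervals, 1 library of each genotype. Aldh1a2 in presomitic mesoderm-like cells and Crabp1 in somitic mesoderm-like cells lie lower in Tet-TKO than in WT host.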

How the data were processed

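Sorted cells of chimaeric embryos were profiled with 10x Genomics 3′ version 3 chemistry. The deposited values are the authors' unnormalised UMI counts for each gene in each cell, made with Cell Ranger on mm10 with an Ensembl GRCm38 annotation to which tdTomato was added; the header of the deposited counts gives version 3.1.0, and the methods name a later one. The 9 genes, the lists of other pathway and target genes and the markers were chosen with earlier results of these data known.

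Cells with at least 1500 UMIs, at most 30% mitochondrial and 35% ribosomal UMIs were kept, as in the methods. Each stage was clustered with scanpy 1.11.5 (2500 variable genes, 50 components, correction between libraries by 20 mutual nearest neighbours, Leiden resolution 2), leaving out the members, both lists, tdTomato, sex-linked and mitochondrial genes. Called doublets (0.791% to 7.64% of cells per E8.5 library) were kept, and removed in an alternative. Clusters were named from at least 3 raised markers; clusters led by another class or shallow in UMIs kept their number, so names may differ from those of the study. Names of clusters hold numbers where several share a name.

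UMI counts were summed per cluster and library (at least 10 cells), and edgeR 4.0.16 (filterByExpr, TMM, quasi-likelihood test, two-sided) was fitted per cluster over all genes with Benjamini-Hochberg adjustment; DESeq2 1.42.0 was an alternative. Calls needed an adjusted p of at most 0.01 and a log2 fold change of at least 1, the thresholds of the methods. The code was tested on simulated counts. CPM is counts-per-million of the UMIs in that sum. SE is the size of the log2 fold change divided by the square root of the edgeR F statistic. It therefore follows from the test and is no separate measure of precision. An exact permutation test of 4 against 2 libraries cannot go below p = 0.133 and was not used. Genes named are all 9 members, each in its 3 highest host clusters and wherever called, the called genes of the lists, and the 3 genes closest to each member by Pearson correlation among those reaching 20 CPM in a cluster; any other feature singled out, such as clusters just outside a threshold, was chosen after its values were seen. Alternatives were the tool, scaling, filters, thresholds, clustering, doublets and libraries left out.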

Additional observations from a re-analysis of the deposited data

Results flagged for a closer look

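In 4 genes the clusters moved in opposite directions, every Tet-TKO library lying above both WT host libraries in one cluster and below both in another; the difference between the clusters was not tested, and edgeR called none of the single changes. DESeq2 called 1 of them, Crabp2 in primitive streak-like cells. For Aldh1a2 the log2 fold change in allantois-like cluster 0 (10.3 to 26.1 CPM against 8.09 and 10.0 CPM) was 1.94 above that in mesenchyme-like cluster 25 (2.01 to 4.55 CPM against 5.97 and 8.08 CPM). The Tet-TKO levels in the latter lie near or below the level of the low-count filter, which favoured a lower Tet-TKO value. For Rara the gap between blood progenitor-like cells (4.87 to 7.20 CPM against 4.34 and 4.44 CPM) and surface ectoderm-like cluster 30 (18.4 to 28.8 CPM against 28.8 and 32.7 CPM) was 0.81. For Rarb primitive streak-like cells (1.24 to 4.95 CPM against 0.423 and 0.720 CPM) exceeded gut-like cluster 17 by 2.47. The host levels in primitive streak-like cells rest on few UMIs below the level of the low-count filter. The filter thus favoured a higher Tet-TKO value there. For Crabp2 primitive streak-like cells exceeded blood progenitor-like cells (0.640 to 9.37 CPM against 10.9 and 20.3 CPM) by 2.67. Each pair was picked as the extremes of many clusters, and over all genes 13.0% of gene and cluster pairs were all lower and 9.29% all higher. Among 39 sets of 4 Tet-TKO values, 0 held a library far from the other 3, where chance would flag about 5%.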

How the results depend on the processing

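The 3 member calls lower became 7 under DESeq2, 5 at Leiden resolution 1, 5 with no minimum fold, 8 at an adjusted p of 0.05, 5 with doublets removed, 19 with no filter on low counts, 9 without Tet-TKO libraries 3 and 4, 2 with Tet-TKO libraries summed in pairs or clusters of one name summed, and 0 with no correction between libraries, where only 5 clusters held enough cells of both genotypes; leaving out single libraries gave 1 to 4. Member calls higher (0) were 5, 2 and 7 under DESeq2, an adjusted p of 0.05 and no filter, 2 without libraries 3 and 4, and 0 to 3 with single libraries left out. Other pathway genes called lower (6) became 1 when Tet-TKO libraries were summed in pairs, 10 at 0.05, 0 without correction, 18 with no filter, 10 without libraries 3 and 4, and 1 to 5 with single libraries left out; those called higher (2) became 1 at resolution 1, summed in pairs, summed by cluster name or without doublets, 4 at 0.05, 0 with 30 cells per sum or without correction, 8 with no filter and 0 to 4. Target genes called lower (0) became 3 under DESeq2, 1 with no minimum fold, by cluster name or without doublets, 2 at 0.05 or with tdTomato matched to the sort, 12 with no filter, 3 without libraries 3 and 4, and 0 to 4; those called higher (1) became 3 under DESeq2, 0 at resolution 1, in pairs, by name or without correction, 2 at 0.05, 13 with no filter, and 0 to 4. Over all genes 1251 lower and 823 higher calls came from 350716 tests. They became 4434 and 3884 of 786802 with no filter, and 2763 and 1815 of 331832 without libraries 3 and 4. At 0.05 they were 2614 and 1739, with no minimum fold 1373 and 984, and under DESeq2 1736 and 1291. Resolution 1 gave 1070 and 698 of 261317, and removed doublets 1161 and 781 of 335962. Summing in pairs gave 860 and 595 of 338989, and summing by name 1065 and 692 of 286736. Without correction 9 and 2 of 34930 were called. The counts above are to be read beside these. Whole-library member calls (0) were 1 under DESeq2, at 0.05 and with no filter (each Cyp26c1) and 1 with no minimum fold (Rarg). The cause of these moves was not tested.

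Library numbers 1 and 2 occur in both genotypes. Both fractions were sorted from pooled chimaeras, but the labels do not say that equal numbers mark a shared pool. For cell type proportions the paper set each Tet-TKO sample against its matching WT host, without library numbers. Deviations of same-numbered libraries correlated at 0.46 in pair 1 and -0.15 in pair 2, and the differences between libraries 1 and 2 of each genotype at 0.50 (9364 genes). With 2 pairs and no label that ties them, the numbers were not treated as pairs. A replicate block on libraries 1 and 2 gave 18 lower and 4 higher member calls. Other pathway genes had 13 and 4, and target genes 7 and 3. In whole libraries 1 member was called. Over all genes the block gave 4601 lower and 2968 higher calls in 331832 tests.

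Directions turned in whole libraries for Crabp1 (-0.19 to 0.49 with single libraries left out, below zero at -0.03 without Tet-TKO library 2 and -0.19 without WT host library 1, and -0.18 at the host makeup), Cyp26a1 (0.041 with the replicate block, 0.031 without libraries 3 and 4), Stra6 (-0.14 to 0.056 with single libraries left out, above zero without Tet-TKO library 1) and Aldh1a2 (-0.27 at the host makeup). Summing by cluster name was chosen after seeing the data. Rbp4 kept its call in gut-like cluster 24 in every alternative that could test it, and lost it in 8 alternatives in surface ectoderm-like cluster 6 (edgeR adjusted p up to 0.24), 7 each in cardiomyocyte-like cluster 22 (0.36) and spinal cord-like cells (0.14), 3 in epiblast-like (0.41) and 2 in blood progenitor-like cells (0.042). Meis2 lost its call without Tet-TKO library 2 or either host library, Fabp5 without WT host library 2 in immune-like cells (edgeR adjusted p = 0.027, 0.79 on the log2 scale) and without Tet-TKO library 2 or doublets in notochord-like cluster 40. Depth limits Cyp26c1 most, at 5 to 54 UMIs per library, and few cells of libraries 3 and 4 limit gut-like and surface ectoderm-like clusters.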

Other observations

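Several genes of the pathway and target lists had every Tet-TKO library on one side of both host libraries in many clusters; they were picked after their values were seen. Rbp4 is left out of these counts, since the low-count filter fixed its direction in several clusters. Ncoa2, a receptor coactivator, was all higher in 12 of 25 clusters and above zero in 31 of 32 tested (median log2 fold change 0.51), and Ncoa3 in 7 of 25. Fabp5 was all higher in 11 of 27 clusters. Rdh11, a retinal reductase, was all lower in 7 of 24 clusters (median -0.33). Among the target genes Hoxb1 was all lower in 10 of 21 clusters (median -0.69). Over all gene and cluster pairs the shares were 13.0% all lower and 9.29% all higher.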
